A study of Mus musculus with 10 samples.

Results

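The 9 genes described here encode receptors for extracellular nucleotides and adenosine, a relative of these receptors and 1 enzyme that degrades nucleotides: *P2ry10*, *P2ry2*, *P2ry6*, *P2ry14*, *P2rx4*, *P2rx7*, *Adora2a*, *Adora2b* and *Entpd1*. They were taken by name from a table of read counts for 55487 genes. All 9 were present, and all 9 were among the 13740 genes with CPM (counts scaled to a library size of 1000000) above 1 in at least 3 libraries. The list was selected on measured values, since *P2ry10* was put on it because it separates YFP+ from YFP- cells. The differences of the 9 genes between these groups are therefore a description, and nothing is supported by them. Their calls at the limits used for all genes are counted below, and no result is read from them.

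The cells came from the spinal cord of 5 male mice on a C57BL/6 background, aged 8 to 12 weeks, all carrying a reporter allele that expresses yellow fluorescent protein (YFP). All mice had experimental autoimmune encephalomyelitis (EAE), a model of multiple sclerosis, induced with a peptide of myelin oligodendrocyte glycoprotein in complete Freund's adjuvant and with pertussis toxin, and were sampled at peak disease. Viable CD45+CX3CR1+ cells without CD3 or Ly6G were sorted, and from each mouse 200000 YFP+ cells and 100000 YFP- cells gave 1 RNA library each. The reporter marks activity of the promoter that drives it, and the sort does not separate monocyte-derived cells from other CX3CR1+ cells such as microglia and macrophages of the CNS borders. The comparison asks how myeloid cells with the reporter on differ from their neighbours in the same inflamed tissue. The mice are called m2, m6, m234, m235 and m236. Total counts ranged from 28870482 to 33826355 in YFP+ libraries and from 8396863 to 35455643 in YFP- libraries. The YFP- library of m234 had the lowest total, and 1 CPM corresponds to 8.40 counts in it.

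The YFP- library of m234 stood apart in its cell type markers. The summed level of 8 microglia markers was 3184 CPM in it, against 847 to 1570.1 CPM in the other YFP- libraries and 771 to 1187 CPM in the YFP+ libraries.

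Damaged or activated cells release ATP, which opens P2X ion channels and activates G protein-coupled P2Y receptors on neighbouring cells, and in the CNS microglia and macrophages sense tissue injury in this way. Enzymes on the cell surface then remove the phosphates step by step, from ATP through AMP to adenosine, and adenosine acts on a separate family of receptors that mostly dampens inflammation. P2RY10 resembles P2Y receptors in sequence but is known as a receptor for lysophosphatidylserine, a phospholipid that has lost 1 fatty acid, and it is best described in lymphocytes.

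*P2ry10* (chrX:107088492-107104974, forward strand, GRCm38) was low in every YFP+ library. The YFP+ libraries of m2, m6, m234, m235 and m236 held 127, 97, 106, 95 and 101 counts, and the YFP- libraries 836, 642, 163, 450 and 486 counts in the same order. After scaling for library size these were 4.41, 3.14, 3.42, 2.88 and 3.30 CPM in YFP+ cells and 26.4, 17.8, 19.2, 16.1 and 16.2 CPM in YFP- cells. The highest YFP+ library lay well below the lowest YFP- library, and m2 was the highest animal in both groups. The YFP- library of m234 had the smallest count of its group, while its CPM lay inside the range of the other YFP- libraries. YFP+ cells had a mean of 3.43 ± 0.585 CPM and YFP- cells one of 19.1 ± 4.24 CPM (SD, n = 5), so that the YFP- mean was 5.58 times as high. The log2 fold change was −2.48 (SE 0.161), the 18th lowest of the 13740 genes tested. Within animals the log2 difference was −2.55 in m2, −2.47 in m6, −2.45 in m234, −2.44 in m235 and −2.26 in m236, a narrow range. In bulk samples such as these, fewer cells that express a gene and less RNA of it per cell cannot be told apart.

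The neighbour *P2ry10b*, a paralog that was chosen for this description after its values were seen, lies 44.0 kb further along the same strand (chrX:107148927-107173661). Its levels were 34.7, 31.2, 33.4, 46.0 and 28.3 CPM in the YFP+ libraries of m2, m6, m234, m235 and m236, and 38.2, 34.3, 26.2, 44.5 and 35.0 CPM in the YFP- libraries. These ranges overlapped almost fully (log2 fold change −0.05, SE 0.144, FDR 0.854, higher in YFP+ cells in 2 of 5 animals). *P2ry10* thus made up 5.90% to 11.3% of the counts of both paralogs in YFP+ libraries and 26.6% to 42.2% in YFP- libraries. The paralogs share 113 stretches of 50 bases, the read length, which is 3.79% of those of *P2ry10*, and reads from such stretches could be assigned to either gene or lost. Of the 23 other genes within 500 kb of *P2ry10* on either side, only *P2ry10b* and *Cysltr1*, a receptor for cysteinyl leukotrienes, passed the filter on low counts, and *Cysltr1* had a log2 fold change of −0.08 (SE 0.154, FDR 0.766). *Gpr174*, another receptor for lysophosphatidylserine in this stretch, had 8 counts over the 10 libraries.

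Because these adjacent paralogs differed in their pattern, the 250 bases before the first annotated start of each are shown (RefSeq, GRCm38.p6). The windows are chrX:107088242-107088491 for *P2ry10* and chrX:107148677-107148926 for *P2ry10b*, both on the forward strand and free of annotated exons. Capitals mark a match to the AP-1 motif TGANTCA, found 99 bases before the start of *P2ry10* and 117 bases before that of *P2ry10b*.
P2ry10: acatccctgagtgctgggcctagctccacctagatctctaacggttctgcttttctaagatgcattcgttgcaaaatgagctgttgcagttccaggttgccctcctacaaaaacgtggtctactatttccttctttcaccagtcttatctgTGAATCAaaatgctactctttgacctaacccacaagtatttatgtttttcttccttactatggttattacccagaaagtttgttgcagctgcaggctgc
P2ry10b: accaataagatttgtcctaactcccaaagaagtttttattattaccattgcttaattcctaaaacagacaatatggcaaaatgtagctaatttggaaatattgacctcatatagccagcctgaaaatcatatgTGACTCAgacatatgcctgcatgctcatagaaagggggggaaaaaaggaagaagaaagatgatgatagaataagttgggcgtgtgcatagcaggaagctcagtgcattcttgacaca
Both strands were searched, and 6.75% of the 32851 promoter windows of this length hold this motif. The ETS motif GAGGAAGT, as bound by PU.1, was in neither of these windows, but it was present before a later start of *P2ry10*, 31 bases upstream, and before a later start of *P2ry10b*, 45 bases upstream. These later windows lie inside the genes and hold 99 and 161 bases of annotated exon. *P2ry10* had 2 windows and *P2ry10b* had 3. The motif GAGGAAGT occurs in 2.44% of all windows, a share per window and not per gene. The core of the interferon-stimulated response element, which is GAAA, any 2 bases and GAAA again and is held by 2.98% of all windows, was found in no window of either gene. The motifs searched do not overlap in these windows, and a match of letters is not evidence of binding. Of the 9 genes, 7 had windows in the table.

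**Figure D1:**
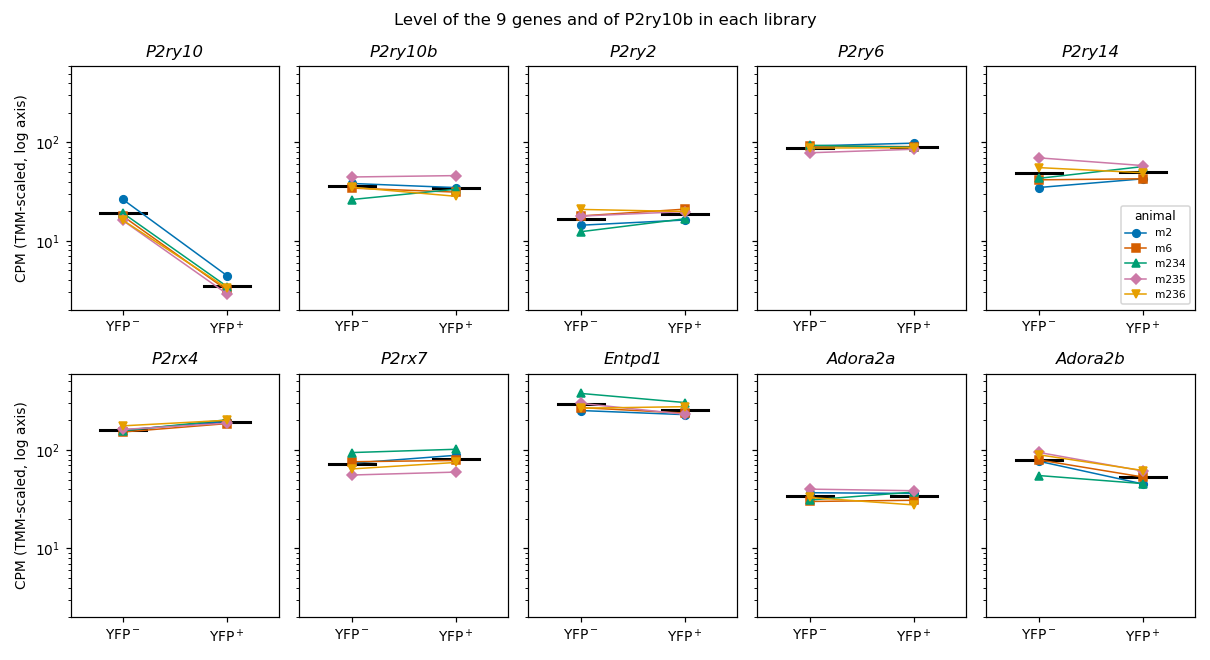
Level of the 9 genes and of *P2ry10b* in each library, in CPM on a log axis, with YFP- on the left and YFP+ on the right of each panel. Lines join both libraries of an animal and black bars are group means. The lines of *P2ry10* drop from between 16.1 and 26.4 CPM to between 2.88 and 4.41 CPM, while those of *P2ry10b* stay between 26.2 and 46.0 CPM.

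The 3 P2Y receptors for nucleotides on the list were at similar levels in both groups. *P2ry6*, a receptor for UDP that is linked to phagocytosis by microglia (chr7:100937630-100974649), had 98.3, 90.5, 89.1, 85.2 and 88.2 CPM in the YFP+ libraries of m2, m6, m234, m235 and m236 and 92.0, 91.9, 93.6, 78.4 and 87.7 CPM in the YFP- libraries. Its groups overlapped (log2 fold change 0.03, SE 0.0597). *P2ry2*, a receptor for ATP and UTP (chr7:100996568-101012866), lies 21.9 kb from *P2ry6* on the same strand and was much lower. It had 16.3, 21.0, 16.7, 19.8 and 19.8 CPM in YFP+ libraries, against 14.4, 17.9, 12.4, 17.8 and 20.8 CPM in YFP- libraries (log2 fold change 0.15, SE 0.128), with a higher value in YFP+ cells in 4 of 5 animals. The log2 fold change of *P2ry2* was 0.081 without the YFP- library of m234 and 0.25 without that of m236. *P2ry14*, a receptor for UDP-sugars (chr3:59113855-59153618), differed more between animals than between groups. Its levels were 42.6, 42.7, 56.8, 58.1 and 49.2 CPM in YFP+ libraries, against 34.8, 41.6, 43.1, 69.7 and 55.4 CPM in YFP- libraries (log2 fold change 0.03, SE 0.170). Animal m235 was the highest in both groups for *P2ry14*.

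Both P2X channels on the list are known from macrophages and lie next to each other, 16.1 kb apart on chromosome 5 and on the same strand. *P2rx4* (chr5:122707544-122729738), a channel that resides largely in lysosomes, had 195, 186, 203, 188 and 201 CPM in YFP+ libraries, against 160, 153, 157, 162 and 176 CPM in YFP- libraries. The lowest YFP+ library lay above the highest YFP- library, and the difference was small (log2 fold change 0.27, SE 0.0530, within animals 0.19 to 0.37). *P2rx7* (chr5:122643911-122691432), the channel through which high ATP activates the NLRP3 inflammasome, had 88.5, 78.4, 102, 59.7 and 74.8 CPM in YFP+ libraries, against 73.5, 76.0, 94.3, 55.7 and 64.3 CPM in YFP- libraries. The groups overlapped (log2 fold change 0.16, SE 0.151), although each of the 5 animals had the higher value in YFP+ cells, by 0.045 to 0.27 on the log2 scale. The log2 fold change was 0.061 without the YFP+ library of m234 and 0.26 without the YFP- library of this animal. The spread of *P2rx7* was mostly between animals, with m234 highest and m235 lowest in both groups. With the animal as a block its log2 fold change was 0.15 (SE 0.0413).

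*Entpd1*, which encodes the surface enzyme CD39 that converts ATP and ADP to AMP (chr19:40612366-40741602), had 229, 237, 304, 231 and 276 CPM in YFP+ libraries, against 252, 270, 377, 298 and 266 CPM in YFP- libraries. It was lower in YFP+ cells in 4 of 5 animals, with m236 the exception (log2 fold change −0.19, SE 0.116), and the groups overlapped. Without the YFP- library of m234, the highest of all, the log2 fold change was −0.087. With the animal as a block it was −0.19 (SE 0.0561). The adenosine receptors of the A2 type raise cyclic AMP. *Adora2a*, the high-affinity form (chr10:75316877-75334784), had 36.2, 30.9, 37.4, 38.6 and 27.7 CPM in YFP+ libraries, against 36.8, 30.0, 31.1, 40.1 and 32.9 CPM in YFP- libraries, with group means of 34.1 ± 4.68 and 34.2 ± 4.19 CPM (SD, n = 5). *Adora2b*, the low-affinity form (chr11:62248984-62266453), had 45.2, 53.2, 45.6, 61.2 and 61.9 CPM in YFP+ libraries, against 77.0, 79.5, 55.1, 94.7 and 89.7 CPM in YFP- libraries. Each animal had the lower *Adora2b* value in YFP+ cells, by a log2 difference between −0.77 in m2 and −0.27 in m234, and the groups overlapped only through the YFP- library of m234 (log2 fold change −0.58, SE 0.137).

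The 9 genes were counted against the limits used for all genes, in the fit with no block. In the higher direction 1 was past an FDR of 0.05, *P2rx4*, where 6.82% of all tested genes were. In the lower direction 2 were, *P2ry10* and *Adora2b*, where 6.15% of all tested genes were. With the further limit of an absolute log2 fold change above 1, *P2ry10* was past it in the lower direction, beside 0.888% of all genes in this direction and 0.560% in the higher one. The groups did not overlap for 2 of the 9 genes, *P2ry10* and *P2rx4*, beside 11.3% of all genes. Since the list was chosen on this contrast, nothing is read from these counts.

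Levels of different genes were compared per kb of annotated exon. Counts were made per transcript and summed, so reads in exons shared by transcripts may be missing or counted more than once. Exon length does not correct for this, and the orders below are approximate. In YFP+ cells the order was *P2rx4* (72 CPM per kb), *Entpd1* (58.8), *P2ry6* (46.4), *Adora2b* (29.0), *P2ry14* (16.1), *P2rx7* (14.6), *Adora2a* (13.2), *P2ry2* (5.88) and *P2ry10* (1.17). The ranges over libraries overlapped between *P2rx4* and *Entpd1*, and between *P2ry14*, *P2rx7* and *Adora2a*, so that the order within these is not settled. In YFP- cells *Entpd1* (67.3 CPM per kb) came before *P2rx4* (59.8), *P2ry6* (45.6) and *Adora2b* (42.9), followed by *P2ry14* (15.8), *P2rx7* and *Adora2a* (both 13.2), *P2ry10* (6.53) and *P2ry2* (5.23). Here the neighbours whose ranges overlapped were *Entpd1* and *P2rx4*, *P2ry6* and *Adora2b*, the genes from *P2ry14* to *Adora2a*, and *P2ry10* and *P2ry2*. By this measure *P2ry10* was the lowest of the 9 genes in YFP+ cells and level with *P2ry2* in YFP- cells.

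After the mean of each group was subtracted, the 10 libraries showed which genes varied together from animal to animal. These values are a description over 10 libraries that share 5 animals and their depth, and the most alike of 13739 genes are extremes by choice. For *P2ry10* 9 of the 10 highest correlations of log2 CPM were those of *Top2a* (r = 0.954), *Ncs1* (0.952), *Tbc1d31* (0.949), *Mcm5* (0.948), *Acly* (0.931), *Stil* (0.930), *Mcm3* (0.929), *Gm38345* (0.928) and *Pign* (0.927). *Top2a*, *Mcm5*, *Mcm3* and *Stil* are known for roles in DNA replication and cell division. None of these 9 genes had a group difference near that of *P2ry10*, as their log2 fold changes ran from −0.56 for *Mcm5* to 0.34 for *Ncs1*. For the other genes the most alike were *Chchd10*, *Tmem192* and *Ninj1* for *P2ry2* (r = 0.983, 0.975 and 0.970), *Zkscan3*, *Fam53b* and *Lrp6* for *P2ry6* (0.986, 0.945 and 0.921), and *Tmem242*, *Gm7251* and *Gm5575* for *P2ry14* (0.954, 0.950 and 0.946). *P2rx4* was closest to *Gm13341*, *Ppme1* and *Gm46209* (0.915, 0.884 and 0.879), and *P2rx7* to *Nlrp1c-ps*, *Dnajb14* and *Ldlrad4* (0.980, 0.978 and 0.973). *Entpd1* was closest to *Rpl18-ps1*, *Mga* and *Gm6649* (0.954, 0.950 and 0.944), *Adora2a* to *Zc2hc1a*, *Cttn* and *Il1b* (0.973, 0.965 and 0.937), and *Adora2b* to *Atp10d*, *Cmtr2* and *Atp6v1g1* (0.982, 0.970 and 0.969). Among the 9 genes themselves the extremes were *P2ry2* with *Adora2b* (r = 0.850) and *P2rx7* with *Adora2b* (r = −0.904).

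The rest of the pathway was described by 84 other genes of nucleotide and lysophospholipid signalling, of which 62 were tested. Of these, 9 were higher and 8 lower in YFP+ cells at an FDR below 0.05 in edgeR's quasi-likelihood test, beside 6.82% and 6.15% of all 13740 tested genes. These shares apply to the counts of the lists below by the same test and FDR. The median log2 fold change of the 62 genes was −0.04, beside −0.0022 over all tested genes. With the animal as a block, 18 were higher and 16 lower, including all 17 of these genes, but calls over all tested genes also rose, to 16.8% higher and 18.3% lower. Without both libraries of m2 the counts were 5 and 4, without those of m6 they were also 5 and 4, and without those of m236 they were 6 and 5. Leaving out the YFP+ library of m2 or that of m6 alone left 5 genes lower. In all 22 other settings tried, 9 of the 17 genes stayed past the limit: *Nt5e*, *Enpp1*, *Acpp*, *Gja1*, *S1pr1*, *Gpr183*, *Lpar6*, *Ptafr* and *Gna13*. The other 8 were lost in some settings, and the fits without a library or animal had no block. With the animal as a block the FDR was 0.00711 for *Entpd5*, 4.93e-05 for *Entpd7*, 0.00102 for *Slc29a3* and 3.6e-05 for *Ampd3*. It was 0.0118 for *P2ry13*, 0.000241 for *Lrrc8c*, 0.00418 for *S1pr2* and 0.00302 for *Gpr18*.

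**Figure D2:**
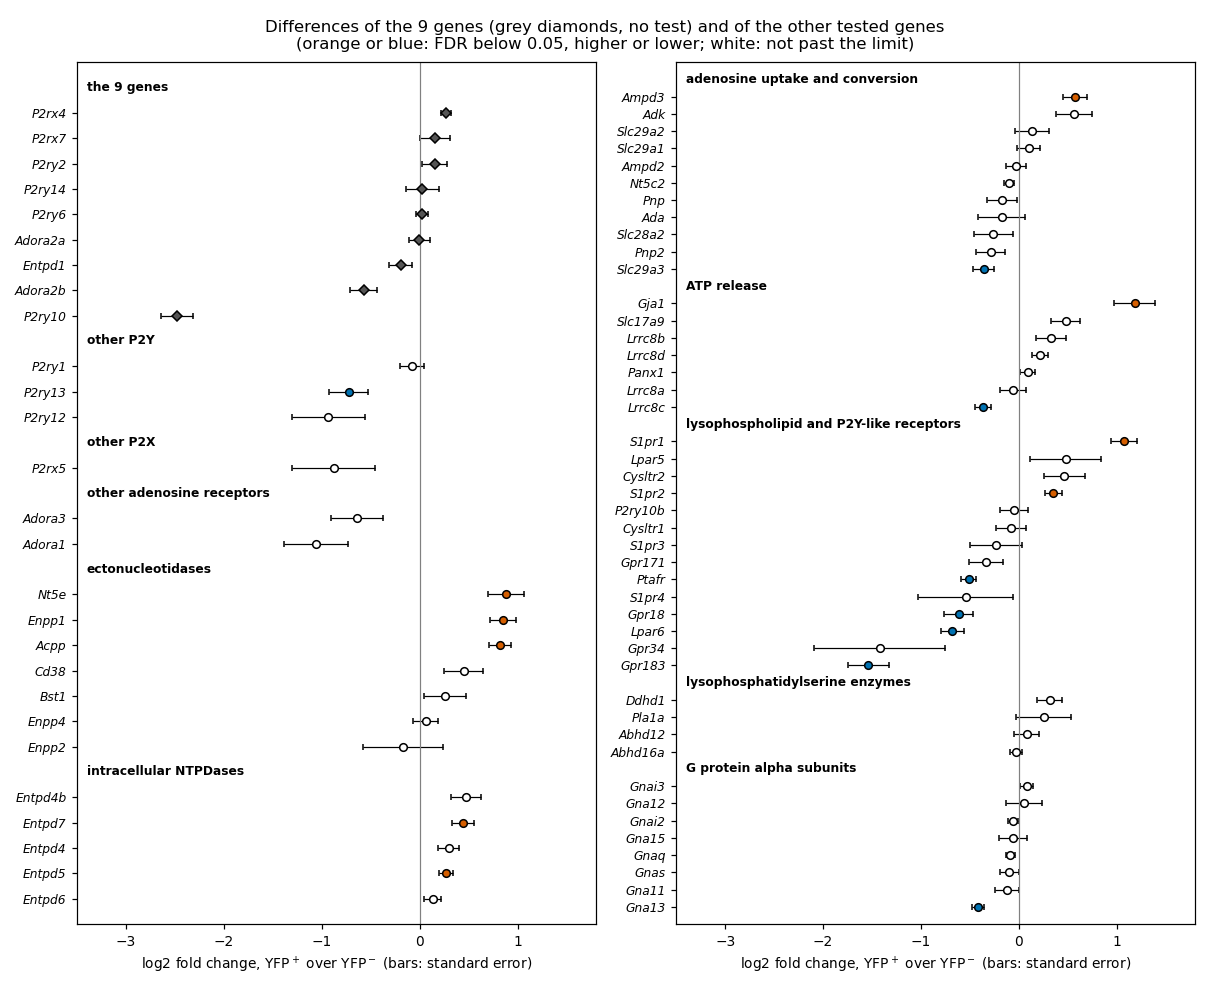
Log2 fold change of YFP+ over YFP- cells with its standard error for the 9 genes (grey diamonds, calls not marked) and for the 62 other tested genes by list. Orange marks the 9 genes higher and blue the 8 genes lower at an FDR below 0.05, and white marks genes not past this limit. *P2ry10* lies farthest from 0 at −2.48, and the ectonucleotidases *Nt5e*, *Enpp1* and *Acpp* lie between 0.82 and 0.88.

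Among enzymes that degrade extracellular nucleotides, 7 of 12 listed genes were tested, and the 3 that passed were all higher in YFP+ cells (list median 0.45). *Nt5e*, which encodes CD73 and makes adenosine from AMP, had 140, 106, 118, 98.6 and 82.8 CPM in the YFP+ libraries of m2, m6, m234, m235 and m236 and 82.8, 67.7, 46.5, 54.3 and 43.4 CPM in the YFP- libraries. The groups met at 82.8 CPM, and every animal had the higher value in YFP+ cells (log2 fold change 0.88, SE 0.181, FDR 0.00923). *Enpp1*, which cleaves ATP and the cyclic dinucleotide cGAMP, rose from 12.8 ± 2.12 to 23.2 ± 3.62 CPM (log2 fold change 0.85, FDR 0.00212). *Acpp*, an acid phosphatase that can also produce adenosine from AMP, rose from 11 ± 1.76 to 19.6 ± 1.88 CPM (log2 fold change 0.82, FDR 0.00105). Both were higher in 5 of 5 animals without overlap between the groups. *Bst1*, an NAD-consuming surface enzyme and the most abundant of the list, had 343 ± 91.9 and 286 ± 93.1 CPM in YFP+ and YFP- cells (log2 fold change 0.26, FDR 0.442). Its FDR was 0.0148 with the animal as a block and ran from 0.0148 to 0.834 over the settings. The log2 fold change was 0.077 without the YFP+ library of m235 and 0.47 without the YFP- library of this animal.

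The NTPDases of the Golgi and secretory route include 5 tested genes, of which 2 were higher (list median 0.29). *Entpd7*, the highest in CPM, rose from 26.0 ± 3.62 to 35.6 ± 4.75 CPM (log2 fold change 0.44, FDR 0.0231), and *Entpd5*, a UDPase of the endoplasmic reticulum, from 14.7 ± 0.624 to 17.7 ± 1.5 CPM (log2 fold change 0.27, FDR 0.0311), each in 5 of 5 animals. *Entpd7* shares 7.51% of its exon length with *Cox15* on the opposite strand. *Entpd5* passed the limit in 5 of the 15 fits without a library or animal. Dropping 1 library gave an FDR of 0.0524 to 0.0722 for 3 YFP+ libraries (m236, m235 and m2) and for 3 YFP- libraries (m235, m6 and m2), and the FDR was 0.0517 with library totals alone and 0.0661 with every gene of at least 1 count. *Entpd7* passed it in 8 of these fits, with an FDR of 0.0590 and 0.0545 without the YFP+ libraries of m6 and m236 and of 0.0505 without the YFP- library of m2. *Entpd4b* had the largest difference of the list (log2 fold change 0.47, FDR 0.0644), with an FDR of 0.0132 under the block, 0.0189 in DESeq2 and 0.0132 to 0.236 over all settings, among them 0.0385 without the YFP+ library of m235 and 0.0146 without the YFP- library of m234. *Entpd4*, also on chromosome 14 and with the same exon length of 4180 bases, had a log2 fold change of 0.29 (FDR 0.0973). Stretches shared by *Entpd4* and *Entpd4b* were not measured, so their values may not be separate results.

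Genes for the uptake and conversion of adenosine went both ways, with 1 of 11 tested genes higher and 1 lower (list median −0.10). *Ampd3*, an AMP deaminase that diverts AMP from adenosine, rose from 18.4 ± 3.15 to 27.6 ± 3.55 CPM (log2 fold change 0.57, FDR 0.0102, 5 of 5 animals). Its FDR was 0.0504 without m2 and 0.0530 without m6. *Slc29a3*, a nucleoside transporter of lysosomes and the highest of the list in CPM, fell from 218 ± 40.0 to 170 ± 13.7 CPM (log2 fold change −0.36, FDR 0.0491, lower in 5 of 5 animals). The YFP- library of m234 had 286 CPM, against 184 to 217 CPM in the other YFP- libraries. Within animals the log2 difference was −0.62 in m234 and between −0.33 and −0.19 in the others. *Slc29a3* was close to the limit and passed it in 4 of the 15 fits without a library or animal. Dropping 1 library gave an FDR of 0.0551 to 0.0984 for 4 YFP+ libraries (m236, m235, m6 and m2) and for 3 YFP- libraries (m236, m6 and m2). Its FDR in limma-trend was 0.0519, within a range of 0.00102 to 0.154 over all settings, the lowest with the animal as a block.

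Channels and a transporter that let cells release ATP had 1 of 7 tested genes higher and 1 lower (list median 0.22). *Gja1*, which encodes a connexin that forms hemichannels, rose from 1.18 ± 0.218 to 2.7 ± 0.692 CPM without overlap (log2 fold change 1.18, FDR 0.00443, 5 of 5 animals), from 161 counts over the YFP- libraries to 414 over the YFP+ libraries. *Lrrc8c*, a subunit of volume-regulated anion channels, fell from 93.4 ± 12 to 72.4 ± 5.35 CPM without overlap (log2 fold change −0.37, FDR 0.0160, 5 of 5 animals), and its FDR was 0.0675, 0.0556 and 0.0552 without m2, m6 and m236. *Lrrc8d*, of the same channel and the most abundant of the list, had 123 ± 6.17 and 105 ± 12.7 CPM in YFP+ and YFP- cells (log2 fold change 0.22, FDR 0.0895). With the animal as a block its FDR was 0.00464, the lowest of a range up to 0.20.

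The other P2Y receptors included 3 tested genes, of which *P2ry13* was lower (list median −0.72). *P2ry13*, a receptor for ADP, had 29.3, 32.0, 25.1, 25.6 and 41.4 CPM in the YFP+ libraries of m2, m6, m234, m235 and m236 and 44.5, 40.5, 82.9, 41.9 and 47.2 CPM in the YFP- libraries. The YFP- library of m234 stood above all others, and every animal had the lower value in YFP+ cells (log2 fold change −0.72, SE 0.20, FDR 0.0344). Without this library the log2 fold change was −0.50 (FDR 0.0285), and the FDR was above 0.05 in 8 of the 15 fits without a library or animal. These included the fits without the YFP+ library of m2, m6, m234 or m235 (FDR 0.0661 to 0.0781) and without the YFP- library of m236 (0.0531). *P2ry12*, a receptor for ADP by which microglia extend processes to injury, had the largest difference of the list with a wide spread, 24.2 ± 5.60 against 47.7 ± 34.5 CPM (log2 fold change −0.94, FDR 0.117). This rested largely on 1 library, as the log2 fold change was −0.44 without the YFP- library of m234, smaller than that of *P2ry13*, and ran from −1.13 to −0.44 without a library or animal. Its FDR was 0.0247 with the animal as a block, and 0.0476 without the YFP- library of m235, in a range of 0.0247 to 0.260, and its highest value, 107 CPM, was again in the YFP- library of m234. The part of microglia in these values was not tested. *P2ry14* lies in the same cluster on chromosome 3 as *P2ry13* and *P2ry12*, 54.3 kb from the first and 62.7 kb from the second. *P2ry4* had 1 count in all.

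Of the other P2X channels 1 was tested, *P2rx5*, at 0.968 ± 0.540 CPM in the YFP+ group and 1.77 ± 0.916 CPM in the YFP- group (log2 fold change −0.88, FDR 0.188). Without a library or animal the log2 fold change ran from −1.13 to −0.49, the latter without the YFP- library of m2. Its FDR was 0.0221 with the block, in a range of 0.0221 to 0.469. The other 4 had between 2 and 181 counts over all libraries, too few for a test. Both other adenosine receptors were tested. *Adora1*, which lowers cyclic AMP, had 3.42 ± 1.2 CPM in the YFP+ group and 7.35 ± 3.24 CPM in the YFP- group (log2 fold change −1.06, FDR 0.0531). *Adora1* was lower in YFP+ cells in 5 of 5 animals, and its FDR was 0.00691 with the block, in a range of 0.00691 to 0.188. The FDR was also below 0.05 in DESeq2 (0.00753), with library totals alone (0.0449) and with every gene of at least 1 count (0.0298), so that 4 of the 7 other settings called it. Without the YFP- library of m235 it was 0.0175, and without both libraries of this animal 0.0236. In the other 13 of the 15 fits without a library or animal it was not below 0.05. The log2 fold change of *Adora1* ran from −1.25 to −0.77 over these 15 fits. Its highest value, 11.9 CPM, was in the YFP- library of m234. Within animals the log2 difference was −2.21 in m234, −1.27 in m2, −0.35 in m6, −0.74 in m235 and −0.61 in m236.

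Receptors for lysophospholipids and relatives of *P2ry10* formed the largest list, with 2 of 14 tested genes higher and 4 lower (list median −0.29). *S1pr1*, a receptor for sphingosine 1-phosphate that guides leukocyte exit from tissues, had 18.1, 13.8, 15.0, 20.3 and 14 CPM in the YFP+ libraries of m2, m6, m234, m235 and m236 and 7.54, 7.61, 9.30, 8.41 and 6.14 CPM in the YFP- libraries. The groups did not overlap (log2 fold change 1.07, SE 0.135, FDR 0.000687). *S1pr2*, a second receptor for this lipid, rose from 26.6 ± 2.84 to 34.0 ± 3.64 CPM (log2 fold change 0.35, FDR 0.0259, 5 of 5 animals). It passed the limit in 9 of the 15 fits without a library or animal, but not without the YFP+ library of m6 (FDR 0.0625) or the YFP- library of m2 (0.0613). *Gpr183*, a receptor for oxysterols that positions immune cells, had the largest difference of the list and the direction of *P2ry10*. It had 6.60, 6.74, 6.78, 3.46 and 7.74 CPM in YFP+ libraries, against 19.1, 16.7, 25.5, 13.2 and 17.7 CPM in YFP- libraries, without overlap (log2 fold change −1.54, SE 0.210, FDR 0.00109). *Lpar6*, a receptor for lysophosphatidic acid, fell from 39.5 ± 5.12 to 24.8 ± 3.66 CPM (log2 fold change −0.68, FDR 0.00327), although 5.89% of its 50-base stretches are shared with *Rb1*, in whose intron it lies. *Ptafr*, the receptor for platelet-activating factor and the most abundant of the list, fell from 254 ± 23.1 to 178 ± 16.9 CPM (log2 fold change −0.51, FDR 0.00209). *Gpr18* fell from 5.57 ± 0.166 to 3.64 ± 0.897 CPM (log2 fold change −0.62, FDR 0.0193). It also passed the limit in 9 of these fits, but not without the YFP+ library of m2 (FDR 0.0532) or that of m6 (0.0505). *Gpr183*, *Lpar6*, *Ptafr* and *Gpr18* were each lower in YFP+ cells in 5 of 5 animals. *Oxgr1* had 0 counts in all libraries.

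Enzymes that make or degrade lysophosphatidylserine, the ligand of P2RY10, included 4 tested genes. By edgeR 0 of them passed an FDR of 0.05, and DESeq2 and limma-trend also passed 0, with 1 gene at an unadjusted p below 0.05 in edgeR (list median 0.17). *Abhd12*, the main lysophosphatidylserine lipase and the most abundant, had 178 ± 14.6 and 169 ± 39.2 CPM in YFP+ and YFP- cells (log2 fold change 0.08, FDR 0.719). Without the YFP- library of m234, the highest of all, the log2 fold change was 0.22 (FDR 0.0979), and without that of m235 it was 0.013 (FDR 0.958). *Ddhd1*, a phospholipase, had 169 ± 23.0 and 136 ± 25.1 CPM (log2 fold change 0.31, FDR 0.116). Its FDR was 0.00418 with the block, in a range of 0.00418 to 0.314 that includes 0.0370 without the YFP- library of m236. G proteins carry the signal of all these receptors except the P2X channels. Of 8 tested alpha subunits of G proteins 1 was lower (list median −0.07). *Gna13* fell from 631 ± 14.7 to 473 ± 32.8 CPM without overlap (log2 fold change −0.42, FDR 0.00129, 5 of 5 animals). *Gnai2*, the most abundant subunit, had 809 ± 25.4 and 844 ± 22.5 CPM in YFP+ and YFP- cells (log2 fold change −0.06, FDR 0.459).

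Markers of other cells, which the gate could hold or should leave out, were measured beside *P2ry10*. Of 8 tested markers of conventional dendritic cells, 6 were lower in YFP+ cells, and 7 were with the animal as a block (18.3% of all tested genes). Their summed level over 11 genes was 29.5, 20.8, 35.0, 19.0 and 16.6 CPM in the YFP+ libraries of m2, m6, m234, m235 and m236 and 65.2, 40.4, 75.8, 41.2 and 39.2 CPM in the YFP- libraries. These sums did not overlap, as with *P2ry10*. *Clec9a*, the highest of these markers in YFP+ cells and level with *Kit* in YFP- cells, had 13.9 and 11.8 CPM on average in YFP+ and YFP- cells. The defining genes *Flt3* and *Zbtb46* were at 0.289 and 0.458 CPM in the YFP+ group and at 3.63 and 1.49 CPM in the YFP- group. Of 3 tested B cell markers 2 were lower, and the sum over 8 genes was 10.8, 10.4, 11.2, 4.91 and 13.2 CPM in YFP+ libraries, against 38.1, 25.4, 52.6, 19.6 and 29.1 CPM in YFP- libraries. *Ighm* made up most of it, with 6.97 and 26.5 CPM, while *Ms4a1* and *Pax5* had 9 and 11 counts over all libraries. The part of dendritic cells or B cells in the difference of *P2ry10* was not tested.

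Monocyte markers moved in both directions, with 1 of 8 higher and 5 lower. Their sum was 17625 to 25662 CPM in YFP+ and 13597 to 17800 CPM in YFP- libraries and was carried by *Lyz2*, at 11379 and 7262 CPM, and *Fn1*, at 9214 and 6693 CPM. All 3 tested markers of border macrophages were higher, with *Stab1* the most abundant (841 and 548 CPM) and sums of 798 to 1071 and 505 to 636 CPM, although *Cd163*, *Lyve1* and *Folr2* had only 7, 23 and 32 counts over all libraries. Of 8 microglia markers 0 passed the limit in edgeR and in limma-trend and 1 in DESeq2, with 5 at an unadjusted p below 0.05 in edgeR, all lower. With the animal as a block 6 of these 8 were lower. Over all tested genes 15% were lower at an unadjusted p below 0.05, 9.51% in DESeq2, 6.12% in limma-trend and 18.3% with the block. The plasmacytoid dendritic cell list had 3 tested genes and summed to 67.4 to 86.3 CPM in YFP+ and 76.9 to 181 CPM in YFP- libraries, mostly from *Tcf4* (67.8 and 81.2 CPM), with 0 past the limit in edgeR, 1 in limma-trend, 2 in DESeq2 and 3 at an unadjusted p below 0.05 in edgeR. Cells with CD3 or Ly6G had been removed by the sort, which kept only cells with both CD45 and CX3CR1. T cell markers summed to at most 4.83 CPM in any library (most abundant *Cd5*), NK cell markers to at most 1.64 CPM (*Klrb1c*) and neuron markers to at most 0.222 CPM (*Snap25*), and *Ly6g* had 14 counts in all. The neutrophil list summed to 131 to 322 and 65.8 to 186 CPM, mostly from *Mmp8* (206 and 114 CPM) with *S100a8* next (24 and 20 CPM), and *S100a9* was lower in YFP+ cells. Oligodendrocyte (most abundant *Mbp*, 103 and 91.4 CPM), astrocyte (*Slc1a2*, 12.5 and 15.1 CPM) and endothelial genes (*Flt1*, 87.3 and 121 CPM) summed to 130 and 120, 15.9 and 22.2, and 95.8 and 130 CPM on average in YFP+ and YFP- cells. Of these 3 lists, *Flt1* alone passed the limit in edgeR, in the lower direction. The block gave 2 monocyte markers higher and 6 lower, 2 plasmacytoid dendritic cell genes lower, 1 T cell and 1 astrocyte gene lower, and 2 neutrophil genes and 1 oligodendrocyte gene higher. The part of these cells in the results was not tested.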

How the data were processed

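Libraries were made with a strand-specific kit and read for 50 bases from 1 end. Reads were aligned to GRCm38 by STAR. The authors counted them per transcript of the basic Ensembl 100 annotation in the Union mode of summarizeOverlaps, without secondary alignments. These counts were summed per gene, and the deposited values are integers without normalization. Reads in exons shared by transcripts of a gene may be left out or counted more than once. Picard and STAR 2.7.10b are named in the submitters' processing notes. No source used here says whether reads were counted by strand, so reads from exons that overlap on opposite strands cannot be told apart. Union mode leaves out reads that overlap more than 1 feature.

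Genes with CPM above 1 in at least 3 of 10 libraries were tested with edgeR 4.0.16 (R 4.3.3), using the quasi-likelihood test with TMM library sizes and the Benjamini-Hochberg FDR over all 13740 genes, with no block. CPM values are scaled by TMM. Calls of pathway genes use an FDR below 0.05, and calls of all genes also an absolute log2 fold change above 1. SE is that of the log2 fold change. Within-animal differences use log2(CPM + 0.1). DESeq2 1.42.0, limma-trend (limma 3.58.1), other library sizes and filters, a replicate block for the animal, and fits without single libraries or animals were alternatives. Counts were also simulated, but no outcome of the simulation is given or used here.

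Libraries are paired by the animal number in their titles. Deviations from the group means correlated across genes at 0.361 to 0.664 within an animal and at most 0.0675 between animals.

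Exon length, overlap and shared 50-base stretches came from GENCODE M21 of the same build. The genes, the lists and the marker lists were chosen with earlier results of these data known. Named genes are the 9 genes and of each pathway list every gene past the FDR limit, the most abundant one and the one with the largest difference. They also include the genes most alike to each of the 9 (9 of the first 10 for *P2ry10*, 3 for the others) and the most abundant gene of each marker list but 1. The most abundant gene is by mean CPM over both groups, not per kb. The gene behind the reporter and a few others are not reported here. Other markers and *P2ry10b* were named after their values were seen.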

Additional observations from a re-analysis of the deposited data

Results flagged for a closer look

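The values of the named genes were checked in 96 groups of 5 libraries each, and in 12 of them 1 library lay far from the rest. By chance about 1 in 20 groups would do so. None of the 12 concerned one of the 9 genes.

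Among YFP- libraries, that of m234 had the highest *P2ry13* (82.9 CPM, the others 40.5 to 47.2) and *Cd5* (2.82 CPM, the others 0.768 to 1.17). The YFP- library of m235 had the highest *Lrrc8c* (115 CPM, the others 85.4 to 90.8), *Ptafr* (294 CPM, the others 237 to 251) and *Slc1a2* (24.5 CPM, the others 11.5 to 14.7).

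Among YFP+ libraries, that of m235 had the lowest *Gpr183* (3.46 CPM, the others 6.60 to 7.74), *Ighm* (2.97 CPM, the others 7.20 to 8.75) and *P2ry12* (14.5 CPM, the others 25.0 to 28.5) and the highest *Bst1* (504 CPM, the others 275 to 322). The YFP+ library of m234 had the highest *Gpr18* (5.23 CPM, the others 3.12 to 3.34) and *Snap25* (0.162 CPM, the others 0.0606 to 0.0695, from 5 counts against 2 in each of the others, too few to set it apart), and that of m236 the highest *Abhd12* (204 CPM, the others 171 to 173).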

How the results depend on the processing

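The log2 fold change of *P2ry10* ran from −2.59 to −2.33 without a library or animal and from −2.52 to −2.45 in the 7 other settings, and that of *Adora2b* from −0.67 to −0.50 and from −0.61 to −0.56. *P2rx4* ran from 0.24 to 0.30 and from 0.23 to 0.28, and *Entpd1* from −0.26 to −0.087 and from −0.23 to −0.18. *P2rx7* ran from 0.061 to 0.26 and from 0.11 to 0.17, and *P2ry2* from 0.081 to 0.25 and from 0.11 to 0.18. No value of the 9 genes moved by as much as the spread between libraries (1 SD). The signs of *P2ry6*, *P2ry14* and *Adora2a*, which were near 0, changed between settings, *P2ry6* and *P2ry14* under library totals alone among them.

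Of the pathway genes 9 were higher and 8 lower. The counts were 18 and 16 when the fit had a replicate block, 2 and 1 with an absolute log2 fold change above 1, 5 to 10 and 4 to 10 without a library or animal. Over all genes 77 were higher and 122 lower past both limits. Without the fold limit they were 937 and 845. The lower genes numbered 186 in DESeq2, 190 with every gene that had a count and 213 with the block. Without a library or animal the counts were 53 to 87 and 68 to 168. The cause of these changes was not tested, except that dropping or adding a fold limit changes a count by construction and that fewer libraries were fitted in the last. Apart from the calls given with the results, the block changed no call of a named pathway gene.

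Depth limits the genes of 1 to 3 CPM, such as *P2rx5* and *Gja1*, most in the YFP- library of m234.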
